A study of Mus musculus with 4 samples.

Results

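Rab proteins are small GTPases that mark the membranes of the vesicle system, and their genes were followed here in neutrophils with and without Srf. The genes were chosen by name: every gene of the authors' deposited table written as Rab, digits and at most 1 more letter and digit, and tested by the authors. The name rule found 57 listed Rab genes, of which 47 were tested, among 12634 tested of 23284 listed genes. The 10 that the authors did not test were Rab17, Rab25, Rab26, Rab30, Rab33a, Rab39b, Rab3b, Rab3c, Rab9b and Rab40b, all at or below 0.181 FPKM per the authors' deposited table, with Rab40b listed at 0 in WT.

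A Rab protein switches between a GTP-bound form on a membrane, where it recruits effectors that move, tether or fuse the vesicle, and a GDP-bound form that GDP dissociation inhibitor (GDI) draws back into the cytosol. Exchange factors load GTP, GTPase activating proteins promote its hydrolysis, and a prenyl lipid added with the help of an escort protein anchors the Rab to the membrane. Neutrophils carry preformed granules that they release by regulated exocytosis, and they take up particles into phagosomes that mature by fusing with endosomes, lysosomes and granules, steps in which Rab proteins take part.

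RNA came from mature neutrophils of mouse bone marrow, sorted as high for Gr1, for the 7/4 antigen and for side scatter. WT and Srf KO had 2 samples each, 4 in all, and Srf encodes serum response factor, a transcription factor that binds the CArG box. The way Srf was deleted, any Cre driver, the strain and the age of the mice are not given in the sources used here, nor is it stated whether samples came from separate mice. The authors' deposited table gives 1 pooled value per genotype for each gene in FPKM, fragments scaled to transcript length and library size, so neither the depth nor the spread between samples is known, and p-values may measure technical spread only.

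Log2 folds are given as Srf KO over WT, the ± is the standard error (SE) implied by the authors' fold and test statistic, and a gene is called where the authors' adjusted p is at most 0.05. Srf stood at 13.7 FPKM in WT against 0.439 in Srf KO per the authors' deposited table, a log2 fold of -4.97 ± 0.27. Of the neutrophil markers examined, Cxcr2, Csf3r, Mmp9 and Itgam were called lower and 0 of the 6 tested were called higher, while Camp, Ltf, Ngp, S100a8 and S100a9 had too many reads to be tested, so no summed level is given for that list. In WT and Srf KO, Retnlg stood at 24805 and 17117 FPKM, Cxcr2 at 596 and 201 FPKM and Cebpe at 133 and 125 FPKM per the authors' deposited table. Retnlg and Cebpe were not called, and Ly6g, also on the list, is not in that table. Markers of other blood cells were mostly called higher in Srf KO, and their values stand beside the results they moved with. In sorted bulk cells, fewer cells of a type and less RNA per cell cannot be told apart.

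The Rab genes that fell were among the abundant ones, and those that rose were scarce. Of the 47 tested, 16 (34.0%) were called, where 35.5% of all tested genes were. Called lower in Srf KO were 13 (27.7%), beside 17.8% of all tested genes, and called higher were 3 (6.38%), beside 17.7%. The 13 were Rab44, Rab7, Rab43, Rab27a, Rab32, Rab8b, Rab35, Rab31, Rab8a, Rab5b, Rab3d, Rab20 and Rab1b, and each had 18.8 FPKM or more in WT per the authors' deposited table. The 3 called higher were Rab27b, Rab38 and Rab13, which stood at 3.40 FPKM or less in WT and at 9.09 FPKM or less in Srf KO per the authors' deposited table. Folds lay on both sides of 0, 24 below and 23 above, with a median of -0.04 for Rab genes and 0.08 for all tested genes. With a 2-fold minimum as well, 2 Rab genes were lower (Rab44 and Rab7) and 3 higher, beside 6.49% and 7.18% of all genes with a fold.

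**Figure D1:**
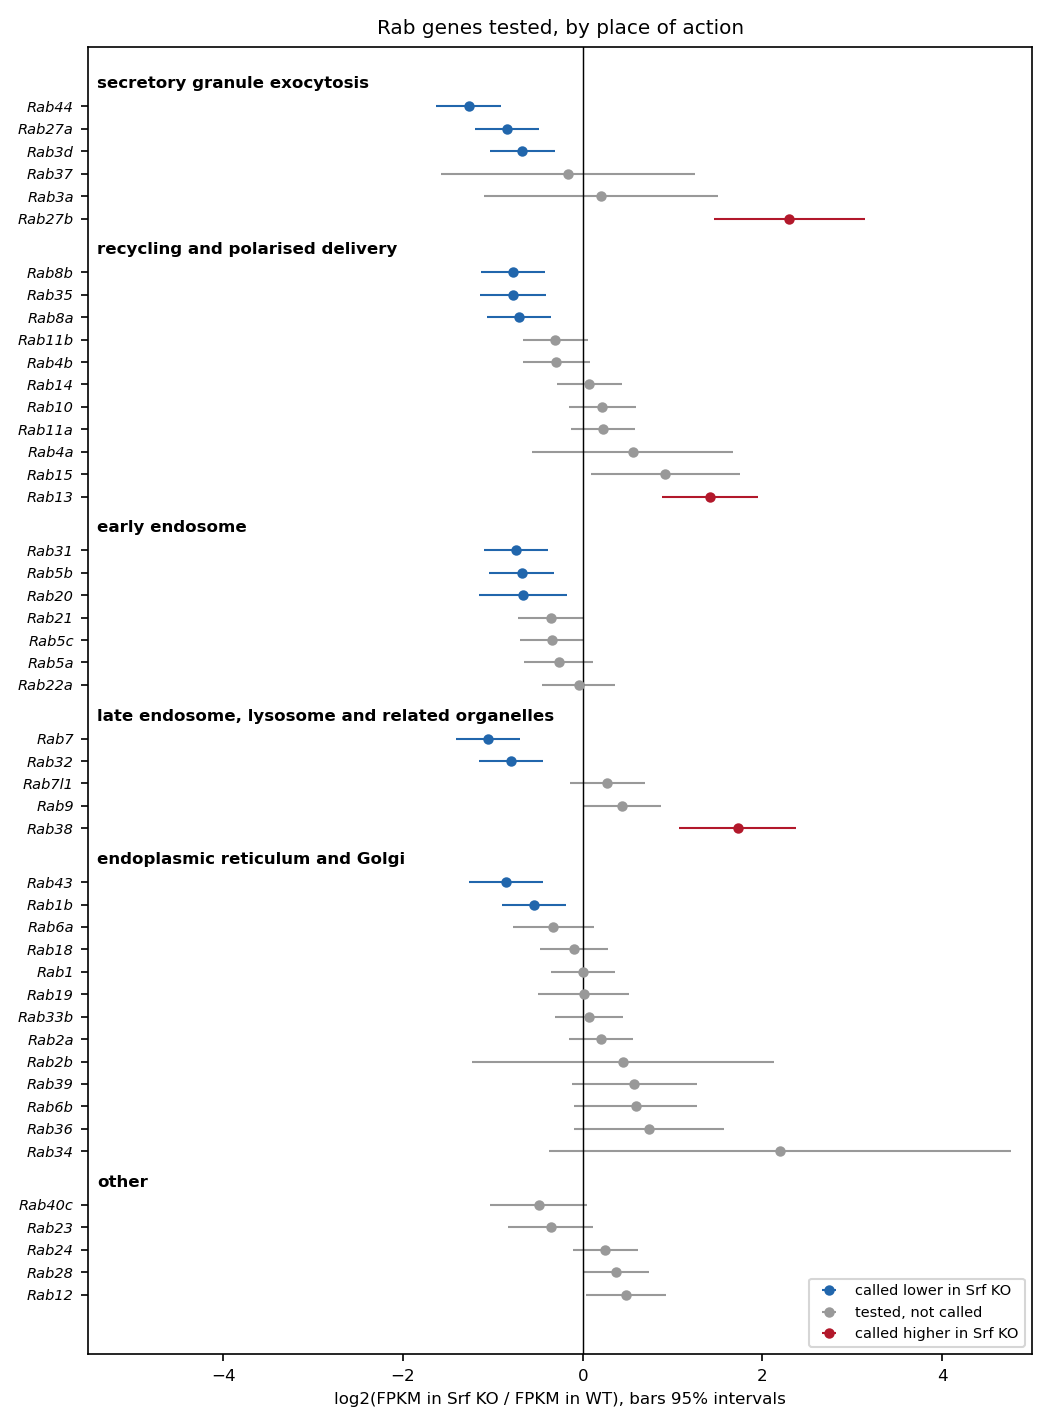
Log2 fold of each of the 47 tested Rab genes (horizontal axis, Srf KO over WT), grouped by where the protein acts; points are the authors' folds and bars are 95% intervals from the implied SE. The 13 genes called lower (blue) appear in every group except the one named other, and the 3 called higher (red) are Rab27b, Rab13 and Rab38.

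Level and direction went together, among Rab genes and among all genes. Of the 32 Rab genes whose mean of both genotypes was 10 FPKM or more, 13 (40.6%) were called lower and 0 higher, against 28.1% and 14.0% of all genes at that level, and the median log2 fold was -0.32 against -0.14. Of the 15 Rab genes below that level, 0 were called lower and 3 higher, against 10.9% and 20.2% of all such genes. This division by level was chosen after seeing the data. The levels of all 57 listed Rab genes summed to 2477 FPKM in WT against 1763 FPKM in Srf KO, 71.2% of the WT sum. Rab7 alone made up 21.6% of the WT sum, and without Rab7 the sums were 1943 and 1506 FPKM, 77.5% of WT. The Arf, Arl and Sar GTPase genes summed to 86.8% of their WT level. All listed genes summed to 90.2% of WT, though Camp, with too many reads to test, enters that sum at 16292 and 0 FPKM.

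**Figure D2:**
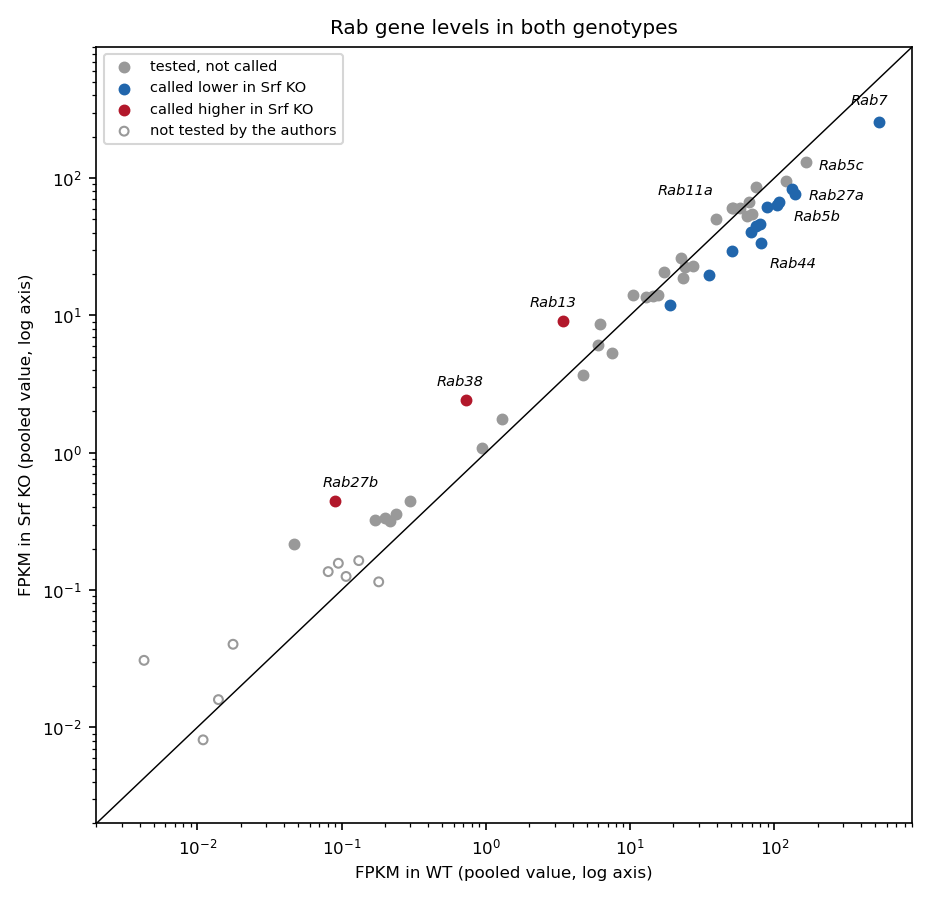
FPKM of Rab genes in WT (horizontal) and Srf KO (vertical), 1 pooled value per genotype, both axes logarithmic, with the line of equal levels; Rab40b, listed at 0 in WT, cannot be drawn. Genes called lower (blue) all lie at 18.8 FPKM or more in WT, and the 3 called higher (red) lie at 3.40 FPKM or less.

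The Rab genes of granule release held the largest fall of the family. Rab44, which encodes a large Rab with EF-hand motifs linked to granule secretion in mast cells (mm10 chr17:29135056-29148976, plus strand), stood at 81.3 FPKM in WT against 33.8 FPKM in Srf KO per the authors' deposited table. Its log2 fold per the authors' deposited table was -1.27 ± 0.18 (adjusted p = 2.86e-10), or 41.6% of the WT level. Rab27a, which docks granules and lysosome-related organelles at the plasma membrane (chr9:73044865-73097592, plus strand), stood at 138 FPKM in WT against 77.0 FPKM in Srf KO per the authors' deposited table. It fell by 0.84 ± 0.18 on the log2 scale per the authors' deposited table (adjusted p = 4.39e-05), to 55.8% of WT. Rab3d, a Rab of secretory granules in exocrine and mast cells, went from 132 to 82.8 FPKM per the authors' deposited table, a log2 fold of -0.67 ± 0.18 (adjusted p = 0.00158).

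Rab27b, the close relative of Rab27a that serves granule release in platelets and mast cells, moved the other way from a very low level. It stood at 0.0898 FPKM in WT against 0.442 FPKM in Srf KO per the authors' deposited table, a log2 fold of 2.30 ± 0.43 (adjusted p = 1.48e-06). Even in Srf KO the Rab27b level, per transcript length, was far below that of Rab27a. Rab37, another mast cell granule Rab, was at 15.7 and 14.0 FPKM per the authors' deposited table with a fold too imprecise to read (-0.16 ± 0.72), and its locus overlaps Cd300lf. Rab3a, the synaptic vesicle Rab, stood at 0.937 and 1.08 FPKM per the authors' deposited table and was not called. Summed over the 9 listed granule Rab genes, the level was 368 FPKM in WT against 209 FPKM in Srf KO. In all, 3 of the 6 tested granule Rab genes were called lower and 1 (16.7%) higher, beside 17.8% and 17.7% of all tested genes, with a median log2 fold of -0.42. All genes at 10 FPKM or more, the level of the 3 called lower, were called lower in 28.1%.

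Rab genes of recycling and polarised delivery were divided, with Rab11a itself not called. Rab11a, the Rab of the recycling endosome (chr9:64715300-64737756, minus strand), stood at 51.7 FPKM in WT against 60.5 FPKM in Srf KO per the authors' deposited table. Its log2 fold per the authors' deposited table was 0.23 ± 0.18 (adjusted p = 0.345), and the 95% interval from -0.13 to 0.59 holds no fall as large as that of Rab27a, Rab7 or any other Rab gene called lower. Rab11b was at 23.3 and 18.9 FPKM per the authors' deposited table, a log2 fold of -0.31 ± 0.18 that was not called (adjusted p = 0.183). The Rab11a fold minus the Rab11b fold was 0.53 on the log2 scale (95% interval 0.02 to 1.04, errors taken as independent). That difference takes no account of transcript length, 2336 bases for Rab11a and 6109 for Rab11b. With the trend of folds over transcript length subtracted, the folds lay closer together, at 0.10 for Rab11a and -0.10 for Rab11b.

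Among the Rab promoters at hand, that of Rab11a alone held a CArG box, the letter pattern to which SRF binds, a run of A or T bases between CC and GG that reads the same way on both strands. In RefSeq's promoter windows on GRCm38.p6, the assembly of mm10, each from 250 bases before to 50 bases after a gene's start, the pattern occurred in 1 of 59 Rab promoters (1.69%). These belong to 47 of the 57 listed Rab genes, 39 of them tested, and the other tested Rab genes had no window. It occurred in 535 of all 32851 promoters (1.63%), a near equal share. The box of Rab11a lies 154 to 145 bases before the start, on the minus strand, and is shown in capitals within chr9:64737861-64737950, because Rab11a is singled out here and is a gene that was not called.
Rab11a promoter: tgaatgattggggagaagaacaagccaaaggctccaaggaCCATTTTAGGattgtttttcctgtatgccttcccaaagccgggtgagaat
The window describes letters only, and no binding was measured.

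The recycling Rab genes that were called lower were Rab8b, Rab35 and Rab8a. Rab8a, which carries vesicles from the Golgi and recycling endosome to the plasma membrane, went from 104 to 63.6 FPKM per the authors' deposited table (log2 fold -0.71 ± 0.18, adjusted p = 0.000758). Its relative Rab8b went from 69.5 to 40.6 FPKM per the authors' deposited table (-0.77 ± 0.18, adjusted p = 0.000204). The Rab8a and Rab8b folds differed by 0.07 with a 95% interval from -0.44 to 0.57, an interval that spans differences in both directions. Rab35, a Rab of fast recycling, went from 50.5 to 29.6 FPKM per the authors' deposited table (-0.77 ± 0.19, adjusted p = 0.000324). Rab13, known from tight junctions and delivery to the cell surface, rose from 3.40 to 9.09 FPKM per the authors' deposited table, a log2 fold of 1.42 ± 0.27 (adjusted p = 3.41e-06). The other 6 tested genes, Rab4a, Rab4b, Rab10, Rab11b, Rab14 and Rab15, were not called, with log2 folds from -0.31 (Rab11b) to 0.92 (Rab15, at 0.170 and 0.322 FPKM) per the authors' deposited table.

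All 7 Rab genes of the early endosome had folds below 0, as did 5758 of all tested genes where 6794 were above, and 3 of them (42.9%) were called lower. All genes at 10 FPKM or more, the level of these genes, were called lower in 28.1%. Rab5 proteins drive the fusion of incoming vesicles with the early endosome, and the authors' deposited table lists a gene for each of the 3 forms. Rab5c was the most abundant, at 166 FPKM in WT against 131 FPKM in Srf KO per the authors' deposited table (log2 fold -0.35 ± 0.18, adjusted p = 0.125). Rab5b was at 107 and 66.9 FPKM per the authors' deposited table and was called lower (-0.68 ± 0.18, adjusted p = 0.00131). Rab5a was the least abundant, at 27.5 and 22.8 FPKM per the authors' deposited table (-0.27 ± 0.19, adjusted p = 0.282).

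A call for Rab5b and none for Rab5a and Rab5c does not show that the forms differed. The Rab5b fold minus the Rab5c fold was -0.33 (95% interval -0.84 to 0.17), and the Rab5a fold minus the Rab5b fold was 0.41 (-0.11 to 0.93). Rab31, which moves cargo between the trans-Golgi and early endosomes, went from 74.1 to 44.5 FPKM per the authors' deposited table (-0.74 ± 0.18, adjusted p = 0.000409). Rab20, linked to phagosome maturation in macrophages, went from 18.8 to 11.9 FPKM per the authors' deposited table (-0.66 ± 0.25, adjusted p = 0.0270). Rab21, an integrin-trafficking Rab, was at 70.4 and 55.0 FPKM and Rab22a at 14.3 and 13.9 FPKM per the authors' deposited table, neither called. The early endosome group summed to 479 FPKM in WT against 346 FPKM in Srf KO, with a median log2 fold of -0.36.

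Rab7 had the highest level of any Rab gene in both genotypes and the largest drop in FPKM. It directs late endosomes and phagosomes to fuse with lysosomes (chr6:88000435-88013690, minus strand), and it stood at 534 FPKM in WT against 257 FPKM in Srf KO per the authors' deposited table. The log2 fold per the authors' deposited table was -1.06 ± 0.18 (adjusted p = 1.99e-07), leaving 48.1% of the WT level. Several listed loci are shorter than their genes in GENCODE M21, among them those of Rab7, Rab44 and Rab13 (listed at chr3:90220817-90225963). The GENCODE genes span 87999106 to 88045270, 29114145 to 29148980 and 90213695 to 90226385, so part of their annotated transcripts may not have been counted. Rab32, a Rab of melanosomes and other lysosome-related organelles, went from 80.2 to 46.1 FPKM per the authors' deposited table (-0.80 ± 0.18, adjusted p = 0.000140). Rab38, which shares that role, rose from 0.729 to 2.41 FPKM per the authors' deposited table (1.72 ± 0.33, adjusted p = 3.89e-06). Rab9, which returns receptors from late endosomes to the Golgi, was at 10.4 and 14.1 FPKM and Rab7l1 at 17.1 and 20.7 FPKM per the authors' deposited table, neither called.

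In the endoplasmic reticulum and Golgi group, 2 of 13 tested Rab genes (15.4%) were called lower, near the 17.8% of all tested genes, and 0 higher. Rab43, a Golgi Rab, went from 35.2 to 19.5 FPKM per the authors' deposited table (-0.85 ± 0.21, adjusted p = 0.000426). Rab1b, which serves traffic from the endoplasmic reticulum to the Golgi, went from 89.1 to 61.2 FPKM per the authors' deposited table (-0.54 ± 0.18, adjusted p = 0.0123). Its relative Rab1, at 67.2 and 67.5 FPKM per the authors' deposited table, had a log2 fold of 0.00 ± 0.18, and the Rab1 fold exceeded the Rab1b fold by 0.55 (95% interval 0.04 to 1.05). Rab6a, which acts in retrograde traffic to the Golgi and ranked among the 5 most abundant Rab genes, was at 120 and 95.7 FPKM per the authors' deposited table (-0.33 ± 0.23, adjusted p = 0.268). Its listed locus overlaps Mrpl48, so its level and the split between its isoforms may hold reads of that gene. Rab2a, another Rab of the early secretory route, was at 74.8 and 86.2 FPKM per the authors' deposited table and was not called. The group named other, Rab12, Rab23, Rab24, Rab28 and Rab40c, had 0 of 5 tested genes called.

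Close relatives thus differed in direction or size in some pairs and could not be separated in others. The 12 pairs compared were tested Rab genes that share a number, except Rab7 with Rab7l1. Rab32 with Rab38 was added by choice, and other related genes were not paired. Of these pairs, 5, the added one among them, had a 95% interval of the fold difference that did not include 0. Errors were taken as independent, with no adjustment for the number of pairs or for transcript length. The widest gaps were between Rab27a and Rab27b (-3.14, interval -4.05 to -2.23) and between Rab32 and Rab38 (-2.52, interval -3.27 to -1.77). In both pairs the abundant gene fell and the scarce one rose. The Rab6a fold was below the Rab6b fold by a difference of -0.92 (interval -1.74 to -0.10), though neither gene was called. The sources used here do not give how the authors' counting divided reads that match more than 1 related gene.

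The 3 Rab genes that rose were scarce, and markers of other blood cells rose in the same comparison, in which 17.7% of all tested genes were called higher and 17.8% lower. For megakaryocytes and platelets, 9 of 14 tested markers were called higher and 0 lower, with a summed level of 28.6 FPKM in WT against 75.9 FPKM in Srf KO and Gp6 listed at 0 in WT. For T and NK cells it was 11 of 12 higher (28.6 to 74.0 FPKM), for B cells 5 of 8 (123 to 186 FPKM) and for erythroid cells 7 of 10 (178 to 280 FPKM), with 0 lower in each. For eosinophils, basophils and mast cells 7 of 9 were higher and 0 lower (59.4 to 126 FPKM), and for monocytes, macrophages and dendritic cells 9 of 12 were higher and 2 lower (178 to 240 FPKM). Single genes weighed heavily in some of these sums. In the platelet list Pf4 went from 2.68 to 39.2 FPKM. In the erythroid list Hba-a2 went from 31.1 to 70.3 FPKM and Hbb-b2 from 128 to 158 FPKM, neither called. The part of such other blood cells in the levels of Rab27b, Rab38 and Rab13 was not tested.

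The isoform table repeats the gene table for 49 of the 57 listed Rab genes, which have a single isoform there. Of 50 tested Rab isoforms 15 were called lower and 2 higher, where 14.0% and 13.1% of all tested isoforms were. Of 48 tested start-site groups 15 were lower and 2 higher, against 16.1% and 15.1% of all, and of 49 tested coding sequences 14 were lower and 3 higher, against 15.8% and 14.4% of all. Rab27b was called as a gene, while neither of its isoforms was tested. Rab3a had NM_001166399 at 0.422 FPKM in WT and listed at 0 in Srf KO, and NM_009001 at 0.515 and 1.08 FPKM, per the authors' deposited table, neither called. Differences between isoform folds were computed for Rab43, Rab23 and Rab6a, the genes with a fold in both of 2 tested isoforms.

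Rab43 fell at both of its start sites. The isoform NM_133717, with 468 coding bases, went from 29.0 to 17.9 FPKM per the authors' deposited table (-0.69 ± 0.21, adjusted p = 0.00763), and its share of the gene was 82.3% in WT and 91.8% in Srf KO. The isoform NM_001039394, with 630 coding bases, went from 6.24 to 1.60 FPKM per the authors' deposited table (-1.96 ± 0.66, adjusted p = 0.0157). The 2 folds differed by -1.27 with a 95% interval from -2.64 to 0.10, which includes 0. The 100 bases before each start, on the minus strand, are given to show that the starts differ, chr6:87809758-87809857 for the first and chr6:87811780-87811879 for the second.
Rab43 NM_133717: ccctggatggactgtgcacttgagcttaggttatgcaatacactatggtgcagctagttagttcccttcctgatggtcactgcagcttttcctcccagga
Rab43 NM_001039394: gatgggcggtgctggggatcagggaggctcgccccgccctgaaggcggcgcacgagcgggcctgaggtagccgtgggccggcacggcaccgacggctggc
No base is marked in these windows, which hold no annotated exon of Rab43. Exons of neighbouring genes were not checked.

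Rab23, a Rab known for restraining hedgehog signalling, had an isoform called lower though the gene was not called. As a gene it was at 4.74 and 3.70 FPKM per the authors' deposited table and was not called (-0.36 ± 0.24, adjusted p = 0.244). Its isoform NM_008999 went from 1.72 to 0.0850 FPKM per the authors' deposited table (-4.34 ± 1.45, adjusted p = 0.0143). The isoform NM_001159729 was at 3.01 and 3.61 FPKM per the authors' deposited table and was not called (0.26 ± 0.28, adjusted p = 0.557). The difference between the isoform folds was -4.60 (95% interval -7.50 to -1.70), and both isoforms have 711 coding bases, so their listed starts differ and their coding length does not. The 100 bases nearest each start that hold no annotated exon of Rab23, on the plus strand, are chr1:33719787-33719886 for NM_008999 and chr1:33720307-33720406 for NM_001159729.
Rab23 NM_008999: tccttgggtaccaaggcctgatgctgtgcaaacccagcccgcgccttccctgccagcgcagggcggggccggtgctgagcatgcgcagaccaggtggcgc
Rab23 NM_001159729: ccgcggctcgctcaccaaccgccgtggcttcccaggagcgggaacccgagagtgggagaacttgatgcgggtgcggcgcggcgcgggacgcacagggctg
At these levels the split of reads between the isoforms rests on the authors' estimate, whose error is wide for NM_008999.

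Rab6a has 2 isoforms that differ by the choice between alternative forms of exon 4, which encode the forms called Rab6A and Rab6A'. NM_024287 was at 66.3 FPKM in WT against 61.8 FPKM in Srf KO per the authors' deposited table (-0.10 ± 0.25, adjusted p = 0.837). NM_001163663 was at 53.7 and 33.9 FPKM per the authors' deposited table (-0.66 ± 0.35, adjusted p = 0.153). Neither was called, and the difference of -0.56 had a 95% interval from -1.41 to 0.28. The exons, of 106 bases each on the plus strand of chromosome 7, differ at 30 bases, shown in capitals, and they lie at chr7:100629838-100629943 and chr7:100629666-100629771 in GENCODE M21.
Rab6a NM_024287 exon 4: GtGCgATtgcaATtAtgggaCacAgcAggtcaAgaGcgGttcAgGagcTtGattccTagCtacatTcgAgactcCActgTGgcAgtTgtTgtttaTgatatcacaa
Rab6a NM_001163663 exon 4: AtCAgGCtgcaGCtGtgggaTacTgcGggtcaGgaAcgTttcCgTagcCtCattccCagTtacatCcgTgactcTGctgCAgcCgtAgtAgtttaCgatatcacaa
The letters outside the capitals are the same in both exons.

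**Figure D3:**
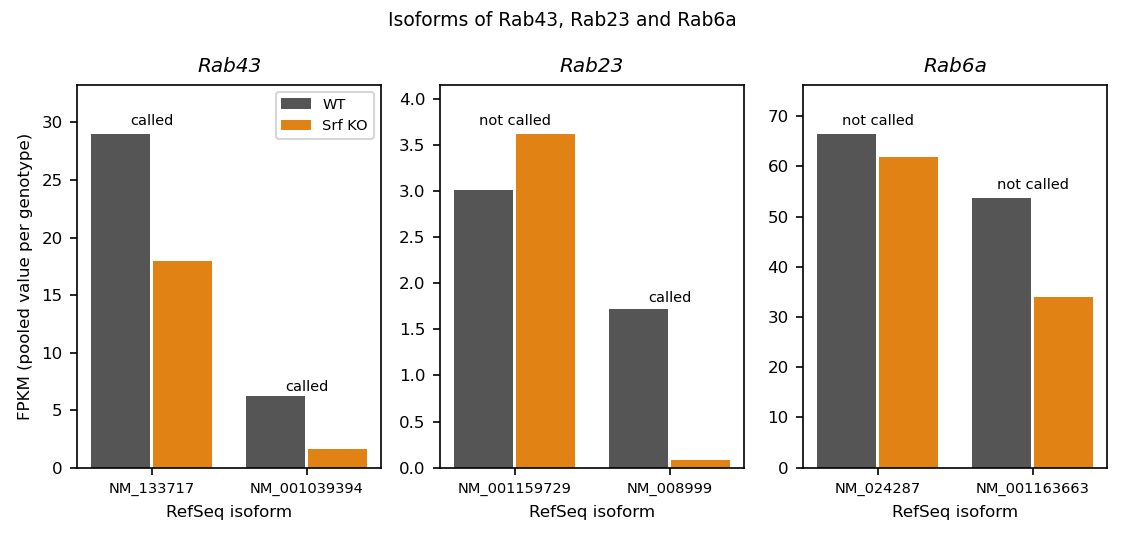
FPKM of the isoforms of Rab43, Rab23 and Rab6a, with 1 bar per genotype (WT grey, Srf KO orange), each a pooled value without a replicate error, on a linear axis from 0. Both Rab43 isoforms were called lower, in Rab23 NM_008999 alone was called, falling from 1.72 to 0.0850 FPKM, and neither Rab6a isoform was called.

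The genes that load, unload and anchor Rab proteins were lower more often than higher. Of 113 tested genes on 6 lists of regulators and effectors, 40 (35.4%) were called lower and 8 (7.08%) higher, with a median log2 fold of -0.31, beside 17.8% lower, 17.7% higher and a median of 0.08 for all tested genes and 28.1% lower for all genes at 10 FPKM or more. Among 7 genes of prenylation and GDI, 4 were called lower and 1 higher (median -0.46). Chm, the escort protein that presents Rab proteins for prenylation, went from 10.1 to 4.65 FPKM per the authors' deposited table (-1.12 ± 0.20). Rabac1, a receptor for prenylated Rab proteins, went from 99.6 to 51.2 FPKM per the authors' deposited table (-0.96 ± 0.19). The 2 subunits of the Rab prenyl transferase were called in opposite directions, Rabggta from 13.7 to 8.19 FPKM (-0.74 ± 0.21) and Rabggtb from 9.64 to 17.3 FPKM (0.84 ± 0.29) per the authors' deposited table.

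Of 33 tested exchange factors 14 (42.4%) were called lower and 1 (3.03%) higher, beside 17.8% and 17.7% of all tested genes (median -0.41). Rin3, which acts on Rab5 proteins and Rab31, went from 151 to 61.9 FPKM per the authors' deposited table (-1.28 ± 0.18). Dennd5a went from 100 to 40.9 FPKM (-1.29 ± 0.18) and Dennd3, the exchange factor of Rab12, from 36.3 to 14.1 FPKM (-1.37 ± 0.18) per the authors' deposited table. The gene called higher was Rab3il1, at 0.805 FPKM in WT against 2.06 FPKM in Srf KO per the authors' deposited table (1.36 ± 0.30). Of 33 tested GTPase activating proteins 10 (30.3%) were called lower and 2 (6.06%) higher (median -0.28). Tbc1d20, which acts on Rab1, went from 38.2 to 15.6 FPKM (-1.29 ± 0.20), and Tbc1d14, Evi5l and Tbc1d1 had log2 folds of -1.17, -1.14 and -1.10 per the authors' deposited table.

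Of 10 tested effectors of Rab11 and Rab4, 6 were called lower and 0 higher, beside 17.8% and 17.7% of all tested genes (median -0.61). Rab11fip2, Rab11fip3, Rabep1 and Rabep2 were not called, nor were Rab11a and Rab11b, and the difference between the effectors and the Rab11 genes was not tested. Rab11fip4, a Rab11-binding adaptor, fell from 12.6 to 1.16 FPKM per the authors' deposited table (-3.44 ± 0.25, adjusted p listed as 0), which is 10.8-fold lower. Rab11fip1 went from 34.2 to 15.5 FPKM (-1.14 ± 0.23), Zfyve27 from 31.8 to 19.1 FPKM (-0.73 ± 0.18) and Rab11fip5 from 6.01 to 3.65 FPKM (-0.72 ± 0.26) per the authors' deposited table.

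For Rab27 and Rab3, 3 of 9 tested effectors (33.3%) were called lower and 3 higher (median -0.11), beside 17.8% and 17.7% of all tested genes. Unc13d, the Munc13-4 protein that works with Rab27a in granule priming, went from 49.9 to 33.7 FPKM per the authors' deposited table (-0.56 ± 0.18, adjusted p = 0.00846). Sytl1 went from 8.86 to 5.32 FPKM (-0.73 ± 0.23) and Rph3al from 1.75 to 0.750 FPKM (-1.22 ± 0.36) per the authors' deposited table. The 3 called higher, named after their values were seen, were Sytl4, Sytl2 and Rph3a, at 0.462 FPKM or less in both genotypes per the authors' deposited table. For Rab5 and Rab7, 3 of 21 tested effectors (14.3%) were called lower and 1 (4.76%) higher (median -0.26), both shares below those of all tested genes. These were Plekhm1, a Rab7 effector, from 30.8 to 15.9 FPKM (-0.96 ± 0.19), Ankfy1 from 23.8 to 15.5 FPKM, the phosphoinositide kinase gene Pik3c3 from 13.1 to 9.27 FPKM, and Rilpl1, which rose from 0.854 to 1.44 FPKM per the authors' deposited table.

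**Figure D4:**
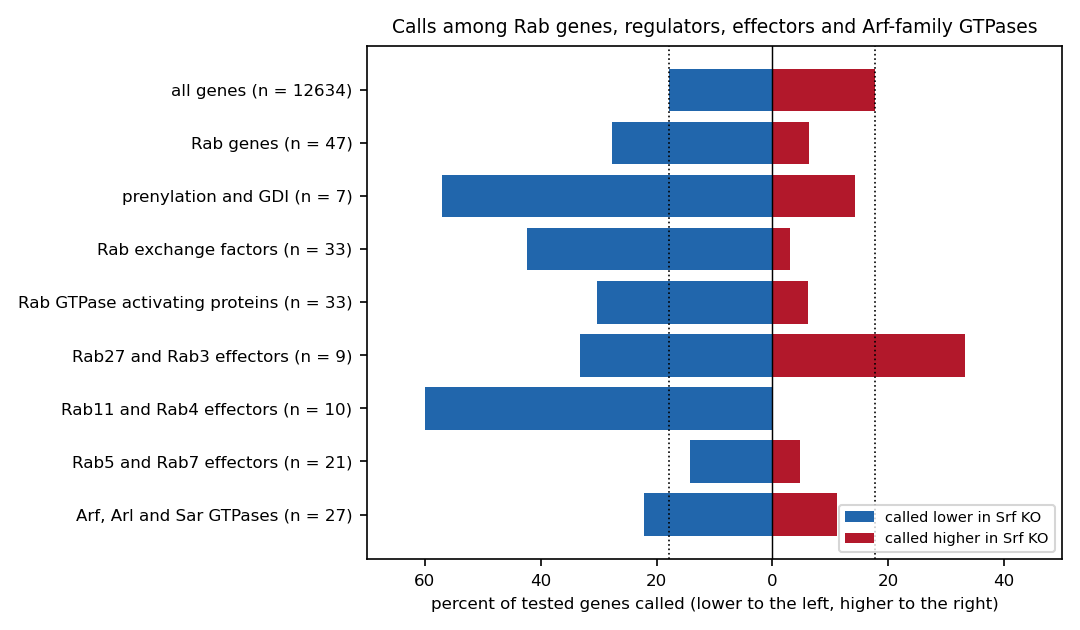
Percent of tested genes called lower (left, blue) and higher (right, red) in Srf KO for all genes, the Rab genes, 6 lists of Rab regulators and effectors and the Arf, Arl and Sar GTPases, with dotted lines at the all-gene values of 17.8% and 17.7%. The Rab bars stand at 27.7% and 6.38%, and short lists (n beside each name) give coarse percentages.

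The Arf, Arl and Sar genes, small GTPases that also act in vesicle traffic, were not tested against the Rab genes, and their counts are given beside them. Of 27 tested, 6 (22.2%) were called lower, near the 17.8% of all tested genes, and 3 (11.1%) higher, beside 17.7% (median 0.07). Many Rab genes without a call remain unresolved at the precision of the authors' test. The implied SE of the tested Rab genes ran from 0.18 to 1.31 with a median of 0.19, the smallest fold called was 0.54 on the log2 scale, and 11 of the 31 uncalled genes had a 95% interval that reaches a 1.5-fold fall. Intervals that reach a rise of that size were not counted, though some do, such as those of Rab9 (up to 0.87) and Rab12 (up to 0.92). Of the listed Rab genes 9 share a locus with another gene, namely Rab2b, Rab3a, Rab3b, Rab4b, Rab5a, Rab6a, Rab10, Rab37 and Rab40c. The library kit keeps no strand, so their reads cannot be assigned with certainty.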

How the data were processed

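Sorted neutrophils of 2 WT and 2 Srf KO samples, as the genotype label gives them, were profiled by RNA sequencing. Libraries were built, per the labels' protocols, with the TruSeq RNA kit v2, which keeps no strand. Per the submitters' processing notes the tools were TopHat2 2.0.0, Cufflinks 2.0.0 and CASAVA 1.8.1, with build mm10. The 4 tables (genes, isoforms, start-site groups, coding sequences) give 1 FPKM value per genotype as the authors deposited it. The log2 fold and the test statistic are scores the authors deposited, with placeholders where a group is at 0, and the fold, WT over KO per the file headers, was reversed here to Srf KO over WT. The p-value and q-value are deposited by the authors too, the q-value adjusted by Benjamini-Hochberg over tested rows, as was checked on all 4 tables.

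The SE is the absolute fold divided by the absolute statistic, and 95% intervals assume a normal error. A fit on single samples had been planned in case the tables held their values, and with pooled values the authors' test is the main result. Named genes were Rab27a, Rab11a, the 3 Rab5 genes, Rab7, every called Rab gene, the 5 most abundant, isoforms called in genes not called, and up to 4 called genes at 1 FPKM or more per list of regulators or effectors; others are named for their group. The Rab genes and all lists were chosen with earlier results of these data known, and 1 list is not reported here. Locus positions are from the deposited table, strands from GENCODE M21. Tried as alternatives were stricter and looser thresholds, a 2-fold minimum, centred folds, filters at 1 and 5 FPKM, subtraction of the trend over transcript length (50 bins, smoothed over 5), log2(FPKM + 1) and the isoform table. The code was tested on simulated data. Software was pandas 2.3.3, numpy 2.4.6, matplotlib 3.10.9 and scipy 1.17.1 under Python 3.11.15.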

Additional observations from a re-analysis of the deposited data

How the results depend on the processing

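Thresholds, filters and log2(FPKM + 1) cannot change the direction of a fold, and centring moved the falls further below 0. After subtraction of the length trend, which could change it, all 13 falls stayed below 0. The count of falls was 11 at an adjusted p of at most 0.01, beside 13.08% of all tested genes, and Rab1b and Rab20 lost the call. It was 15 after subtraction of the length trend, beside 18.36% of all tested genes with a length, and Rab5c (log2 fold -0.50) and Rab4b gained the call. A 2-fold minimum left 2, Rab44 and Rab7, where 6.49% of all genes with a fold passed. The 3 rises became 5 at an adjusted p of at most 0.10, beside 22.46% of all tested genes. They became 1, Rab13, among genes at 5 FPKM or more in 1 genotype, beside 16.2% of all such genes. The median log2 fold of -0.04 for Rab genes moved to -0.28 and -0.30 with the filters at 1 and 5 FPKM, which drop scarce genes. The median of all genes, 0.08 without a filter, moved down as well, to 0.004 and -0.10 with the same filters. For the 39 tested Rab genes that share no locus the median was 0.00, beside 0.08 for all genes. That alternative was chosen after seeing the data, like the division by level. On the log2(FPKM + 1) scale Rab27b had 0.40 and Rab38 0.98. Centring on the all-gene median of 0.08 changed no call among the named Rab genes. No paired analysis was possible because the tables hold pooled values, and the sample numbers in the titles are not shared between the groups, and leaving out each sample was not run for the same reason. Depth is unknown, so what it limits could not be given beyond the implied SE.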
